A study of Mus musculus with 8 samples.

Results

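In kidney cortex of 2-month-old mice, 106715 binding sites of the transcription factor Zbtb7a were paired with a binding site of Mbd3, a subunit of NuRD, the nucleosome remodelling and deacetylase complex. A pair is a Zbtb7a peak and a Mbd3 peak that shared at least 1 bp on an autosome or chromosome X and were each other's best partner by shared bases. The pairs took up 85.6% of 124616 Zbtb7a peaks and 79.5% of 134248 Mbd3 peaks. Chromatin immunoprecipitation with sequencing was run with antibodies against Zbtb7a, Mbd3 and Mta2, another NuRD subunit, and Input chromatin was sequenced beside them. Each of these 4 groups has 2 libraries, 8 in all. All animals carried the genotype Mta2flx/flx, a name for an Mta2 gene flanked by loxP sites, and the labels used here name no Cre driver. Kidney cortex is a mixture of cell types, so a peak cannot be assigned to one of them.

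One peak list per protein was deposited, so no value carries an SD or an n over animals, and differences between proteins were described without a test. Each peak has the fold enrichment that the authors' peak caller gave at its summit, the point of highest signal. Folds of lists made with different antibodies are not on a common scale. Strength was therefore compared as a percentile by fold, the share of a protein's own list that lies at or below the peak. Tied peaks were given their mean. A rank difference is the Zbtb7a percentile minus the Mbd3 percentile, in points, and 30 points was taken as a large difference. Coordinates are of mm10. Depths of single libraries were not analysed here, so a missing peak means only that no peak was called.

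Zbtb7a, also known as LRF, binds DNA through zinc fingers and recruits partners through a BTB domain. In human red blood cells it silences fetal globin genes and has been linked to NuRD there. NuRD joins a chromatin remodelling ATPase (Chd3, Chd4 or Chd5) to the histone deacetylases Hdac1 and Hdac2. Mbd3 or Mbd2 joins the remodeller to the deacetylases, and Mta proteins form the scaffold of the deacetylase module. Mbd3 has little affinity of its own for methylated DNA, and transcription factors are among the partners through which NuRD reaches its sites.

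Promoters of 2 genes of each side are shown as examples of the sequence at starts of genes with pairs of large difference. All are from RefSeq (GRCm38.p6, the coordinates of mm10), 5′ to 3′ on the gene's strand, from 250 bases before to 50 bases after the start of transcription. Capitals mark 4 short words on either strand. The first is GACCC, a core of the sequence that human ZBTB7A contacts, which reads GGGTC from the other strand. The next is CCAAT, bound by the factor NF-Y, which reads ATTGG from the other strand. The last are TATAAA, the letters of a TATA box, and the octamer ATTTGCAT of Oct factors. Gna15 (chr10:81524176-81524475, minus strand) and Adam19 (chr11:46055734-46056033, plus strand) ranked higher for Zbtb7a. The histone genes H2ac24 (chr13:21833426-21833725, minus strand) and H4c18 (chr13:21832148-21832447, minus strand) ranked higher for Mbd3.
Gna15: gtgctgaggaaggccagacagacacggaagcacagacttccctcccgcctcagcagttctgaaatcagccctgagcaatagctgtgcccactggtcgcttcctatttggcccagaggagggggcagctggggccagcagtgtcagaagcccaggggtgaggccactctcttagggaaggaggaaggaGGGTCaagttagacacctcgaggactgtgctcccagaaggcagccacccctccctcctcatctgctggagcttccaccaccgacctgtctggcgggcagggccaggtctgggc
Adam19: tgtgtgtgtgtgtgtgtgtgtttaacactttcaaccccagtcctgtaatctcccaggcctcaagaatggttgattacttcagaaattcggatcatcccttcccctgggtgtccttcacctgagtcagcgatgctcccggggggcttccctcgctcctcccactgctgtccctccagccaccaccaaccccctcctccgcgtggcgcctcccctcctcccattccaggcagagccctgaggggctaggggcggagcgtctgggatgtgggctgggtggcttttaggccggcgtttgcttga
H2ac24: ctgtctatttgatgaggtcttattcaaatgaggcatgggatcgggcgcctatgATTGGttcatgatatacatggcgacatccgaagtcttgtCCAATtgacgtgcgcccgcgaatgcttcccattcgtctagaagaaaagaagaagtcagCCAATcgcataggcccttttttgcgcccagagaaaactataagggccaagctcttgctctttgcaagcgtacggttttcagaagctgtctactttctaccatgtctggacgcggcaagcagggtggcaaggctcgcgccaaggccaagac
H4c18: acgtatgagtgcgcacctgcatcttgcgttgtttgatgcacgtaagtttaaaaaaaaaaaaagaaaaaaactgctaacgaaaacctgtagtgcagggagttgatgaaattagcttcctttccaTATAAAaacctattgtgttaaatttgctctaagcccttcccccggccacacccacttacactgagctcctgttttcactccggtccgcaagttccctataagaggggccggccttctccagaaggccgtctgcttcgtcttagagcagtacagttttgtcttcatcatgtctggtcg
Counted from the start, with negative positions upstream, the Zbtb7a and Mbd3 summits lay at -216 and -166 bp at Gna15 and at -2 and 77 bp at Adam19. They lay at 166 and -140 bp at H2ac24, and at 33 and -6 bp at H4c18. Gna15 held 1 GACCC and Adam19 none of the marked words, while H2ac24 held 3 CCAAT and H4c18 1 TATAAA. GC content was 62.3% in Gna15, 60.3% in Adam19, 50.3% in H2ac24 and 45.3% in H4c18. Other promoters do not follow these examples. Ina and Tlr1, at which Mbd3 ranked higher, had 71.7% GC with none of the marked words and 48.3% GC with 2 GACCC, and Adm2, at which Zbtb7a ranked higher, had 54.7% GC with 1 GACCC. Shares over all promoters of each side are given at the end.

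The summits of paired peaks lay close together. The median distance was 26 bp, the middle 50% of pairs lay between 11 and 52 bp, and in 95604 pairs (89.6%) the summits were within 100 bp of each other. This is well within a peak, as the median pair shared 397 bp. In genome coordinates the median signed distance was 0 bp, a value that ignores strand and so cannot show a shift along genes. At transcription starts the Zbtb7a summit was downstream of the Mbd3 summit in 50.8% of genes with a pair and upstream in 47.8%. Both summits sat just before the start, at a median of -29 bp for Zbtb7a and -33 bp for Mbd3, and within 100 bp of it at 57.7% of these genes for Zbtb7a and 59.7% for Mbd3. Stronger pairs were closer. With pairs divided into 10 equal parts by mean percentile, the strongest part had a median distance of 17 bp and the weakest 46 bp. Only 1660 pairs (1.56%) had summits over 500 bp apart, and the farthest pair 5223 bp. The pairs that shared 50 bp or less, 103 in number, had a median distance of 217 bp, and the 94 unpaired Zbtb7a peaks that missed a Mbd3 peak by at most 50 bp had one of 407 bp.

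**Figure D1:**
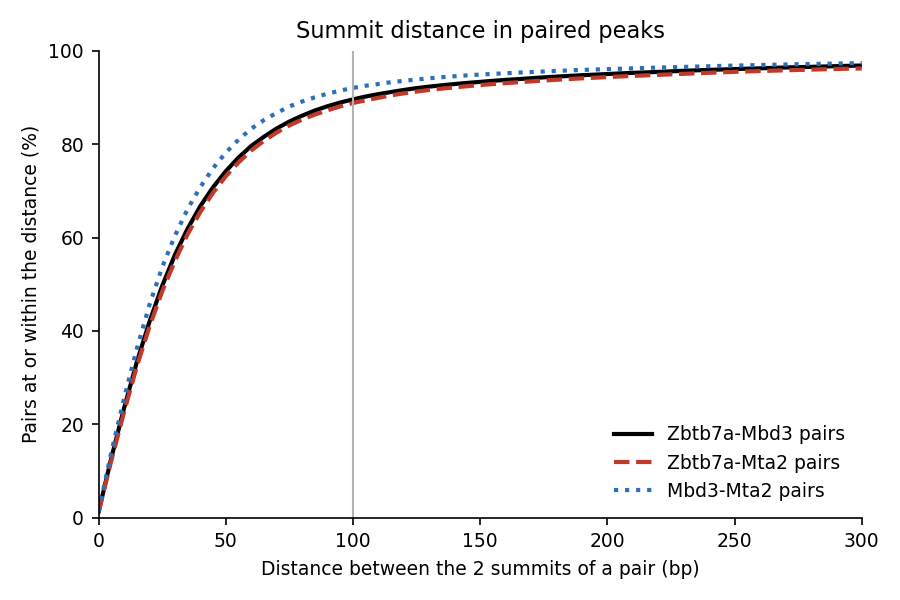
Share of pairs (y axis, %) whose summits lie at or within a given distance (x axis, bp), for Zbtb7a-Mbd3, Zbtb7a-Mta2 and Mbd3-Mta2 pairs, with a grey line at 100 bp. The Zbtb7a-Mbd3 curve passes 89.6% at 100 bp, between Zbtb7a-Mta2 pairs at 88.8% and Mbd3-Mta2 pairs at 92.0%.

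Pairing with the third list gave a scale for this distance. The 107773 Zbtb7a-Mta2 pairs had a median distance of 27 bp, and the 119529 Mbd3-Mta2 pairs, of 2 subunits of one complex, 23 bp. The distance between Zbtb7a and Mbd3 summits was thus 3 bp above that between the NuRD subunits. These 3 pairings share their lists, so they are not independent of each other.

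Zbtb7a peaks were somewhat narrower than their Mbd3 partners. Their median width was 439 bp, against 496 bp for Mbd3, with a median ratio of 0.92 and quartiles of 0.757 and 1.05. The Zbtb7a peak was the wider one in 36011 pairs (33.7%). It was at least 2 times as wide in 1.33% of pairs, while the Mbd3 peak was at least 2 times as wide in 5.97%. Within 1 kb of the start or an end of a gene both were broad and nearly equal, with medians of 985 bp for Zbtb7a and 1020 bp for Mbd3. Farther inside genes, the medians were 405 bp for Zbtb7a and 463 bp for Mbd3. Peak width also depends on the depth and the threshold of each list, and the part of these in the width difference was not tested.

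Peaks without a partner were weak in both lists. The 13923 Zbtb7a peaks that overlapped no Mbd3 peak had a median fold of 2.89 and a median percentile of 14.6, and the 26027 Mbd3 peaks that overlapped no Zbtb7a peak a median fold of 2.93 and a median percentile of 16.6. At the top, pairing was nearly complete. Of the strongest 1% of Zbtb7a peaks, 1235 of 1247 were paired, and their Mbd3 partners had a median percentile of 98.9. Of the strongest 1% of Mbd3 peaks, 1339 of 1343 were paired, and their Zbtb7a partners had a median percentile of 98.8. In 590 pairs both peaks were in the top 1%.

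Most pairs held similar ranks in both lists. The median absolute rank difference was 7.7 points, and 90% of pairs lay between -27.9 and 20.1 points. Zbtb7a ranked at least 30 points higher in 1721 pairs, 1.61% of all, and Mbd3 in 4339 pairs, 4.07%. In the class with the higher Zbtb7a rank the medians were fold 5.34 for Zbtb7a (percentile 53.3) and fold 2.92 for Mbd3 (percentile 15.6). In the class with the higher Mbd3 rank they were fold 2.94 for Zbtb7a (percentile 15.6) and fold 5.44 for Mbd3 (percentile 54.1). A large difference thus set a middling peak of one protein against a weak peak of the other. Among the pairs of large difference, Zbtb7a was the higher in 28.4%. That split depended on the scale. Ranked among paired peaks only, Zbtb7a was at least 30 points higher in 2585 pairs and Mbd3 in 2420, so Zbtb7a was the higher in 51.6%. With the 100000 strongest peaks of each list the share was 47.7%. No statement that one protein more often ranks higher therefore holds on every scale.

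**Figure D2:**
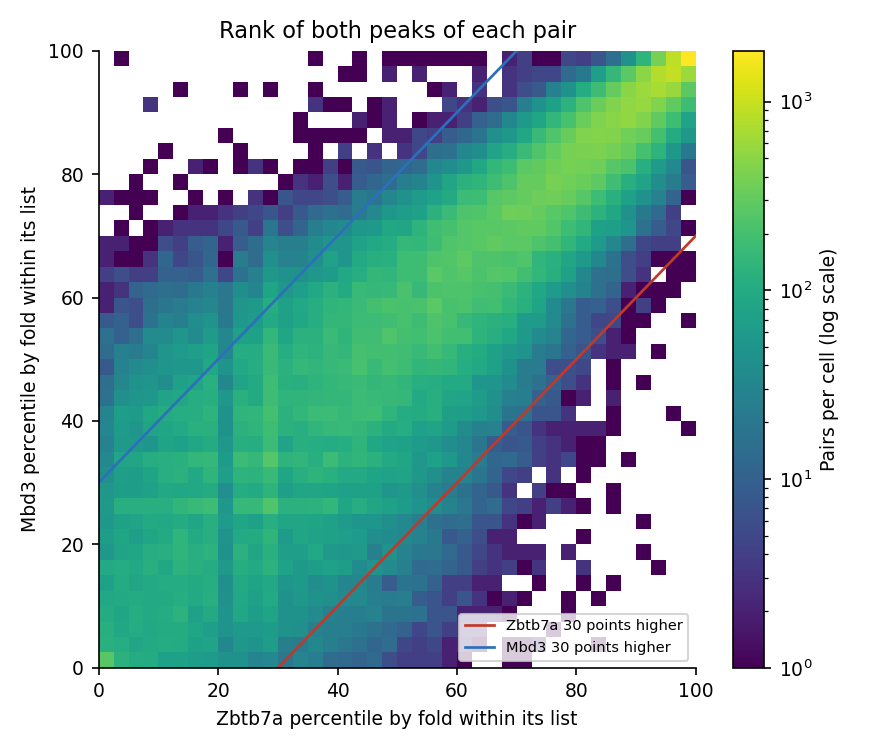
Number of pairs (colour, log scale) by the percentile of the Zbtb7a peak (x axis) and of the Mbd3 peak (y axis), each by fold within its own list. The red and blue lines mark a rank 30 points higher for Zbtb7a and for Mbd3. Pairs are densest along the diagonal and at the upper right, and 1.61% and 4.07% of pairs lie beyond the red and the blue line.

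Large differences were also seen against neighbouring peaks. A peak can overlap several of the other list, and its best partner by shared bases need not be the strongest. Of the 1721 pairs in which Zbtb7a was higher, 1679 remained so when the strongest overlapping Mbd3 peak was used, as did 4185 of the 4339 in which Mbd3 was higher. The pair of lowest rank difference of all was an exception. Its Mbd3 peak (chr16:20496710-20499233, near Eif2b5, a translation initiation factor subunit) had fold 32.9 and its Zbtb7a partner fold 2.34, a difference of -95.0 points. It overlapped 3 Zbtb7a peaks, the strongest of fold 21.6 at percentile 92.4.

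Mta2, the third protein, was read at the pairs of large difference. Where Zbtb7a ranked at least 30 points higher, 1516 pairs (88.1%) had a Mta2 peak in common. Their median percentiles were 54.2 for Zbtb7a, 15.6 for Mbd3 and 36.7 for Mta2. Where Mbd3 ranked at least 30 points higher, 4141 pairs (95.4%) had one. The medians there were 15.8 for Zbtb7a, 54.1 for Mbd3 and 56.4 for Mta2. Of the pairs within 30 points 94.0% had one, with medians of 59.9 for Zbtb7a, 62.8 for Mbd3 and 67.0 for Mta2. Mta2 thus stood above Mbd3 both in these pairs and where Mbd3 ranked higher, and between the others where Zbtb7a did. Over all 119529 Mbd3-Mta2 pairs the Mbd3 percentile minus the Mta2 percentile had a median of -2.48 points. A Mta2 median somewhat above that of Mbd3 is therefore not particular to these classes. The Zbtb7a and Mbd3 medians follow from how the classes were defined.

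By place, 14296 pairs (13.4%) had both summits within 1 kb of the start or an end of the same gene, 48.9% lay inside a gene and 36.4% outside. Rank differences had medians of 0.38 points at gene starts or ends, -2.71 points inside genes and -2.98 points outside. Of pairs in which Zbtb7a was at least 30 points higher, 9.36% were at gene starts or ends, against 4.72% of those in which Mbd3 was and 13.8% of the rest. Gene starts or ends held 35.8% of the strongest of the 10 parts by mean percentile and 4.56% of the weakest, and 2 peaks near the top of their lists cannot differ by 30 points.

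Of 21631 protein-coding genes, 13816 had a pair at the start (or, for the 4357 genes without a start in the promoter table, at either end), and the gene's pair was the one of highest summed percentile. With another window, the pair read for a gene can be another one. The median rank difference over these genes was 0.34 points. Zbtb7a ranked at least 30 points higher at 116 genes, 0.84% of those with a pair, and Mbd3 at 164, 1.19%. With ranks among paired peaks only, the numbers were 244 and 128, so the order of these counts turned too.

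**Figure D3:**
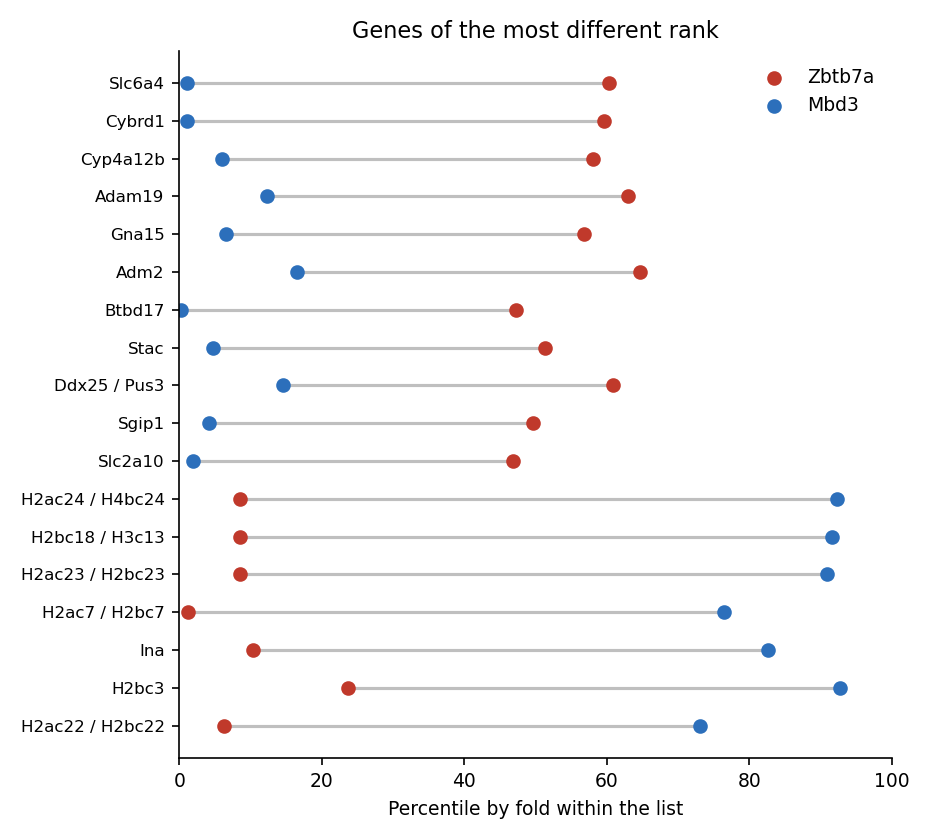
Percentile by fold (x axis) of the Zbtb7a peak (red) and the Mbd3 peak (blue) of the pairs at the 12 genes of highest and the 12 of lowest rank difference, 1 line per pair, with genes that share a pair joined by a slash. Zbtb7a points stand between 46.8 and 64.7 in the upper 11 lines, and 6 of the lower 7 lines belong to histone genes.

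The genes at which Zbtb7a ranked far above Mbd3 served various functions and had middling Zbtb7a peaks. At Adam19, a membrane metalloprotease, Zbtb7a had fold 6.78 (percentile 62.9) and Mbd3 fold 2.79 (percentile 12.3), with summits 79 bp apart. At Gna15, a G protein alpha subunit of blood cells, the folds were 5.78 for Zbtb7a and 2.52 for Mbd3, a difference of 50.3 points. Adm2, a peptide hormone of the adrenomedullin family, had fold 7.10 for Zbtb7a and 2.93 for Mbd3, with summits 6 bp apart. Slc2a10, a glucose transporter family member, had fold 4.67 for Zbtb7a and 2.22 for Mbd3, with summits 12 bp apart. Cyp4a12b, a fatty acid hydroxylase of the mouse kidney, had fold 5.98 for Zbtb7a and 2.51 for Mbd3, a difference of 52.1 points at an end of the gene, but 15.1 points with windows of 3 kb. Stac, an adaptor protein of calcium channels, had a difference of 46.6 points. Btbd17 (47.1 points, summits 194 bp apart) and Sgip1, an endocytic adaptor (45.5 points, summits 295 bp apart), had Mbd3 folds of 1.88 and 2.40. With windows of 0.5 kb the difference at Sgip1 was 15.4 points. Pus3, a pseudouridine synthase, and Ddx25, an RNA helicase of germ cells, share a promoter with fold 6.42 for Zbtb7a and 2.86 for Mbd3 (46.4 points). Ranked by −log10 q, another pair of these genes came first and the direction turned, to -22.5 points.

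For 2 genes of this group the size of the difference depended on the partner. At Slc6a4, the serotonin transporter, the difference was 59.2 points with summits 541 bp apart, and 37.2 points against the strongest overlapping Mbd3 peak. At Cybrd1, an iron-regulated ferric reductase, it was 58.7 points and 45.3 points. Within a window of 3 kb the strongest pair of Slc6a4 was another one, with a difference of -2.26 points.

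Of the 617 genes with a Zbtb7a peak in the top 1%, Brsk2, a neuronal protein kinase, had the largest difference, 34.4 points. Its Zbtb7a peak had fold 69.2 (percentile 99.9) and its Mbd3 peak fold 7.21 (percentile 65.4), with summits 53 bp apart. Mark2, a kinase of cell polarity, followed with fold 105 for Zbtb7a and 10.8 for Mbd3. The shared promoter of Cdc27, a subunit of the anaphase-promoting complex, and Myl4, a myosin light chain, had fold 262 for Zbtb7a, among the highest of its list, and 10.9 for Mbd3 (percentile 78.3). Pik3r2, a regulatory subunit of PI3 kinase, had fold 122 for Zbtb7a and 11.5 for Mbd3 with summits 6 bp apart. By −log10 q the differences at Mark2 and Pik3r2 were smaller, 11.9 points in place of 22.1 and 11.6 in place of 20.2.

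At other genes both proteins stood equally high. Among the 181 genes with both peaks in the top 1%, the most equal were Ccdc107, with fold 109 for Zbtb7a and 65.1 for Mbd3, both at percentile 100.0 when rounded, Nos1ap and Nfib. Nos1ap, an adaptor of nitric oxide synthase, had fold 47.5 for Zbtb7a and 39.8 for Mbd3. Nfib, a transcription factor of the nuclear factor I family, had 52.5 for Zbtb7a and 43.4 for Mbd3. Gfod1 and Ptpn14, a phosphatase that restrains Yap, completed the 5. Their differences were all below 0.01 points, and the Mta2 peak at each had a percentile between 98.9 and 100.0.

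Histone genes made up the other extreme. Of the 12 genes of lowest rank difference, 10 encode histones of the replication-dependent clusters, which supply the nucleosomes of newly copied DNA, and 1 more, H4bc24, shares its pair with H2ac24. The pair at H2ac24 on chromosome 13 had fold 2.66 for Zbtb7a (percentile 8.57) and fold 20.1 for Mbd3 (percentile 92.3). That at H2ac23 and H2bc23 had folds of 2.66 for Zbtb7a and 18.5 for Mbd3, a difference of -82.3 points. With windows of 3 kb another pair came first at these genes, with -43.8 points. At H2bc18 and H3c13 on chromosome 3 the folds were 2.66 for Zbtb7a and 19.3 for Mbd3, with summits 597 bp apart. The difference there was -83.1 points, and -64.7 points for the strongest Zbtb7a peak that overlapped the Mbd3 peak. H2ac7 and H2bc7 had folds of 2.16 for Zbtb7a and 10.3 for Mbd3, and H2bc3 3.25 for Zbtb7a and 20.5 for Mbd3. The remaining gene was Ina, a neuronal intermediate filament, with fold 2.73 for Zbtb7a and 12.9 for Mbd3. At Ina, Mta2 stood at percentile 91.8.

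The histone genes were then taken as a list, chosen after these values were seen. Of 67 genes with a histone cluster or linker histone name, 52 had a pair, in 40 distinct pairs. Mbd3 ranked higher in all 40, with differences of -83.7 to -1.03 points and a median of -40.9 points, and in 27 of them by at least 30 points, where the share over all pairs was 4.07%. Against the strongest Zbtb7a peak that overlapped the Mbd3 peak, Mbd3 was higher in 39 of the 40, again in 27 by at least 30 points. By gene, 37 of 52 passed 30 points, against 1.19% of all genes with a pair. Folds had medians of 3.46 for Zbtb7a (range 1.92 to 40.5) and 11.4 for Mbd3 (range 3.80 to 69.0). The median difference by gene was -49.5 points for H2A genes (13 with a pair), -52.3 for H2B (13), -38.3 for H3 (10), -34.4 for H4 (11) and -29.2 for H1 linker histones (5). The smallest difference, -1.03 points, was at H1f0, a linker histone of non-dividing cells, with fold 21.1 for Zbtb7a and 20.9 for Mbd3.

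**Figure D4:**
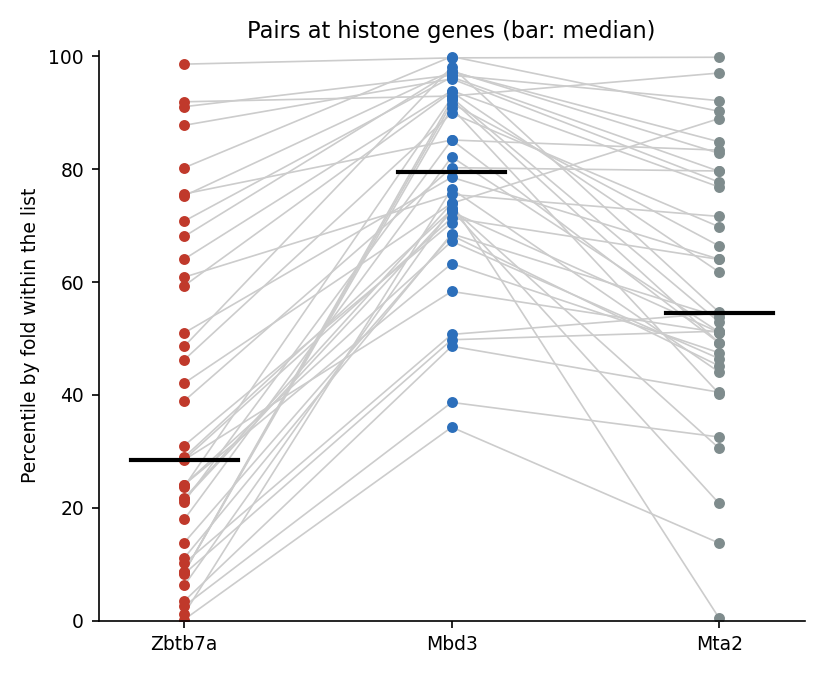
Percentile by fold (y axis) of the Zbtb7a, Mbd3 and Mta2 peaks at the 40 pairs of histone genes (39 with a common Mta2 peak), 1 grey line per pair, with black bars at the medians. The medians are 28.5 for Zbtb7a, 79.4 for Mbd3 and 54.5 for Mta2.

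Mta2 lay between the other proteins at these genes. Its median percentile was 54.5 in the 39 pairs with a common Mta2 peak, against 28.5 for Zbtb7a and 79.4 for Mbd3. Mta2 was above Zbtb7a in 36 of these pairs and below Mbd3 in 34. The lists covered like numbers of these genes, as 57 of the 67 had a Zbtb7a summit within 1 kb, 57 a Mbd3 summit and 59 a Mta2 summit.

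The summits also differed in place at histone genes. At the 47 genes with a pair at a known start, the Mbd3 summit lay at a median of -63 bp and the Zbtb7a summit at a median of 84 bp after the start. The Mbd3 summit was within 200 bp upstream at 28 genes (59.6%), the Zbtb7a summit at 9 (19.1%). Of the 40 pairs, 21 had summits within 100 bp of each other. These 21 had a median difference of -29.8 points, and 9 of them passed 30 points. The histone genes are a family of near-identical copies lying side by side, so placement of reads among copies is uncertain, neighbours share peaks, and the part of either in the result was not tested.

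Inside genes, where 1.71% of 52199 pairs had Zbtb7a at least 30 points higher and 4.30% Mbd3, the extremes were larger for Zbtb7a than those named at gene starts or ends. The sets are unlike, as only the pair of highest summed percentile was read for each gene at starts or ends. The highest was in Olfml2a, an extracellular matrix protein, with fold 14.0 for Zbtb7a (percentile 84.1) and 2.42 for Mbd3 (percentile 4.72), and summits 2 bp apart (Zbtb7a peak chr2:38933945-38934373). In Arhgef16, a guanine nucleotide exchange factor, the folds were 25.5 for Zbtb7a and 2.92 for Mbd3, with summits 6 bp apart. In Lmx1b, a transcription factor of podocytes that is mutated in nail-patella syndrome, they were 19.5 for Zbtb7a (percentile 90.6) and 3.02 for Mbd3 (percentile 18.3), with summits 21 bp apart (Zbtb7a peak chr2:33605062-33606253). Mgam, an intestinal maltase, and Raver2, an RNA-binding protein, had differences of 68.5 and 67.8 points with summits 48 and 15 bp apart. In Vti1a, Dclk3 and Tmem53 the differences were 73.5, 72.1 and 70.8 points, but the summits lay 1145, 894 and 549 bp apart.

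Of the 8 opposite extremes inside genes, 5 were pairs with summits 445 bp or more apart. Asph, a hydroxylase of aspartate residues, had fold 2.85 for Zbtb7a and 22.6 for Mbd3, a difference of -80.8 points, with summits 825 bp apart. In Prrx1, a homeobox factor of mesenchyme, the summits coincided within 1 bp (Mbd3 peak chr1:163311893-163312662). Its folds were 2.45 for Zbtb7a (percentile 5.21) and 11.6 for Mbd3 (percentile 79.9), with Mta2 at percentile 65.3. Ripor3 and Lmo7 had differences of -67.1 and -64.2 points with summits 31 and 83 bp apart. Map3k5, Mxi1, Sec24b and Cobll1 had differences between -73.8 and -64.6 points with summits 445 to 610 bp apart.

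Outside genes, 1.64% of 38816 pairs had Zbtb7a at least 30 points higher and 4.77% Mbd3. These pairs are named by the closest gene, which can be far away. The largest differences in favour of Zbtb7a were 71.9 points at 47922 bp from Smug1, a DNA repair glycosylase, 70.1 points at 6852 bp from Nrep and 66.8 points at 5302 bp from Nxph3. The lowest were -74.3 points at 18334 bp from Ift81, an intraflagellar transport protein, -67.2 points at 609415 bp from Fgf14 and -65.3 points at 26375 bp from Mrgprd. At the pairs named for Fgf14 and Mrgprd the Mbd3 peaks had folds of 8.04 and 7.24 but a −log10 q of 6238 and 4554, and by −log10 q these pairs differed by -5.83 and -12.04 points only.

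The genes of the NuRD complex and of the factors themselves were ordered by role. All 15 NuRD subunit genes had a pair, beside 63.9% of all protein-coding genes. Zbtb7a ranked higher at 13 of the 15, beside 52.4% of all genes with a pair. None passed 30 points, which is rare over all genes with a pair too (0.84% for Zbtb7a and 1.19% for Mbd3). The median difference of the 15 was 4.65 points, beside 0.34 points over all genes. Of the scaffold genes, Mta2 had one of the strongest Zbtb7a peaks, with fold 145 (percentile 100.0 when rounded), and a Mbd3 peak of fold 17.2 (percentile 89.3), with summits 57 bp apart. Mta1 had fold 27.9 for Zbtb7a and 18.7 for Mbd3, and Mta3 19.0 for Zbtb7a and 9.91 for Mbd3, the largest difference of the list at 14.6 points. Of the methyl-binding subunits, Mbd2 had fold 31.8 for Zbtb7a and 29.0 for Mbd3, the lowest difference at -0.35 points, and the Mbd3 gene a difference of 10.8 points with summits 419 bp apart (4.34 points by −log10 q).

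Of the deacetylase genes, Hdac1 had fold 49.1 for Zbtb7a and 26.4 for Mbd3, and Hdac2 16.8 for Zbtb7a and 11.1 for Mbd3 with both summits at the same base. The remodeller genes were lower, with fold 14.2 for Zbtb7a and 11.4 for Mbd3 at Chd4. At Chd3 they had 5.07 for Zbtb7a and 4.39 for Mbd3, and at Chd5 4.45 for Zbtb7a and 4.43 for Mbd3. The histone-binding subunits Rbbp4 and Rbbp7 had differences of 0.11 and 3.08 points. Gatad2a and Gatad2b had 4.65 and -0.23 points, and Cdk2ap1 9.04 points. At Gatad2a, one of the 13, another pair came first with windows of 3 kb (-4.08 points) and by −log10 q (-0.21 points). The pair given above had 3.54 points by −log10 q. At Chd3 the difference was 7.82 points, and with windows of 3 kb another pair came first, with 0.04 points. Zbtb7a itself had no pair within 1 kb of its start, but 5 pairs within 1 kb of its span. The strongest had fold 34.6 for Zbtb7a (percentile 97.7) and 16.9 for Mbd3 (percentile 89.0).

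Over the other gene lists, rank differences were small but ran in different directions. Mbd3 ranked higher at 58 of 74 genes of cytosolic ribosomal proteins with a pair (median -6.81 points), at 59 of 74 of mitochondrial ribosomal proteins (-6.01), at 28 of 36 proteasome subunits (-5.67) and at 51 of 73 genes of oxidative phosphorylation (-3.70). Zbtb7a ranked higher at 20 of 24 genes of fatty acid oxidation and the peroxisome (1.57 points), at 14 of 20 podocyte genes (3.79) and at 10 of 14 endothelial genes (4.63). The size of these medians depended on the settings. The podocyte median was 2.19 with windows of 3 kb, the endothelial one 8.81 with ranks among paired peaks only, and that of fatty acid oxidation 0.62 by −log10 q and 2.61 with ranks among paired peaks only. The median over all genes with ranks among paired peaks only is not given here, so 8.81 and 2.61 have no background beside them. Over all genes with a pair, Zbtb7a ranked higher at 7244 of 13816. Few single members passed 30 points. Within the ribosomal lists Rpl4 had -31.6 points and Mrpl19 -36.7 points. Psmd4, a ubiquitin receptor of the proteasome, had -30.5 points. By −log10 q these 3 genes had -28.4, -28.5 and -23.6 points, short of 30.

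**Figure D5:**
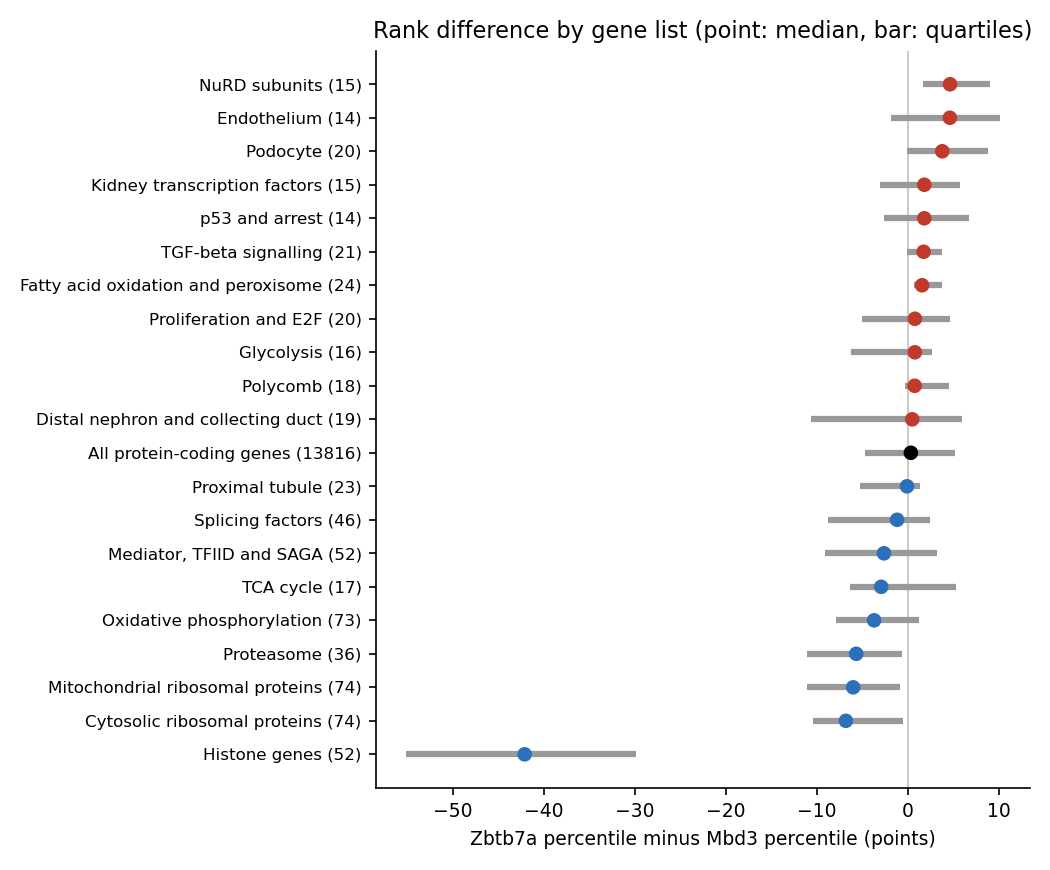
Rank difference, Zbtb7a percentile minus Mbd3 percentile (x axis, points), over the genes with a pair in each list of at least 10 such genes, with medians as points, quartiles as bars and the number of genes in parentheses. Histone genes stand alone at -42.1 points, the lists of ribosomal proteins and the proteasome lie between -6.81 and -5.67, and NuRD subunits and endothelium at 4.65 and 4.63.

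Of the kidney cell types, the podocyte and endothelial lists stood above the value over all genes, as given, while tubule lists were closer to it. The 19 genes of the distal nephron and collecting duct had a median of 0.49 points, which turned to -0.27 with windows of 3 kb and to -0.20 by −log10 q. The 23 proximal tubule genes with a pair, the cells that make up most of the cortex, had a median of -0.08 points. At Slc22a8, an organic anion transporter, Zbtb7a had fold 13.6 and Mbd3 8.86 with both summits at the same base, and at Slc13a1, a sulfate transporter, the folds were 4.11 for Zbtb7a and 6.85 for Mbd3, a difference of -24.0 points (-6.77 with windows of 3 kb). Among podocyte genes, Actn4, an actin crosslinker, had fold 8.35 for Zbtb7a and 12.5 for Mbd3 (-11.7 points). In the distal nephron, Slc12a3, the thiazide-sensitive cotransporter, had 13.8 points and Cldn10, a tight junction protein, -21.5 points. Of endothelial genes, Flt1, a VEGF receptor, had fold 28.1 for Zbtb7a and 8.65 for Mbd3 (24.3 points), and Tek, the angiopoietin receptor, -19.3 points, which turned to 3.79 with windows of 3 kb. Kidney transcription factors held 1 gene past 30 points in each direction. Irx1, a factor of the nephron tubule, had fold 12.7 for Zbtb7a and 3.96 for Mbd3 (44.5 points). Six2, of nephron progenitors, had 2.45 for Zbtb7a and 4.59 for Mbd3 (-40.8 points, summits 547 bp apart).

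The remaining lists had medians between -4.82 and 1.82 points where at least 7 genes had a pair. Their most different members were Top2a, a topoisomerase of dividing cells, with fold 2.13 for Zbtb7a and 5.28 for Mbd3 (-51.6 points), and Hk2, a hexokinase, with 3.34 for Zbtb7a and 9.75 for Mbd3 (-49.8 points, summits 964 bp apart). Ezh2, the methyltransferase of Polycomb, had 12.4 for Zbtb7a and 26.7 for Mbd3 (-15.2 points). At Mdm2, which targets p53 for degradation, the folds were 29.2 for Zbtb7a and 11.1 for Mbd3 (17.4 points), and at Idh3a of the TCA cycle 34.2 for Zbtb7a and 12.1 for Mbd3 (16.5 points). By −log10 q the differences at Mdm2 and Idh3a were 10.7 and 10.8 points. Ski, a repressor of TGF-beta signalling, had the highest fold of all Zbtb7a peaks, 465, and fold 17.4 for Mbd3 (percentile 89.5). Of 16 immune cell genes 3 had a pair, and of 12 genes of other tissues 2, beside 63.9% of all protein-coding genes. Start pairs were present for markers of the proximal tubule (Slc34a1, Hnf4a), the podocyte (Wt1), the distal nephron (Umod, Slc12a1, Slc12a3), the collecting duct (Aqp2) and endothelium (Pecam1, Kdr). Lrp2 of the proximal tubule, Nphs1 of the podocyte and Atp6v1b1 of the collecting duct had none, but 27, 4 and 1 Zbtb7a summits and 35, 2 and 2 Mbd3 summits in their spans. Of genes of other cells and tissues, Ptprc of leukocytes had 3 Zbtb7a and 2 Mbd3 summits in its span, and Cd3e of T cells and Alb of the liver had 1 summit of each protein. The globin gene Hbb-bt and Gcg, a hormone of the pancreas, had no summit of either protein in their span.

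Promoter sequence differed between genes of opposite rank difference. The median GC content was 60% in the 99 promoters at which Zbtb7a was at least 30 points higher, 48.3% in the 130 at which Mbd3 was, 62% in the 9823 with a difference below 15 points and 53% in all 32585 promoters of the table. Without histone genes the Mbd3 class had 51% (95 promoters). The words below were searched on both strands of the 300 bases, and the rank of a peak says nothing of which word is bound. GACCC was found in 61.6% of the Zbtb7a class (exact 95% interval, 51.3 to 71.2), in 24.6% of the Mbd3 class (17.5 to 32.9) and in 53.5% of promoters with a small difference, beside 44.1% of all promoters. The interval of the Zbtb7a class holds the share with a small difference, so no excess over those promoters can be read. The longer GACCCC, which holds GACCC, was in 33.3% of the Zbtb7a class, 7.69% of the Mbd3 class, 19.3% of promoters with a small difference and 15.1% of all promoters. Among promoters of 50 to 65% GC, GACCC was in 65.0% of 60 in the Zbtb7a class (exact interval 51.6 to 76.9) and in 18.4% of 38 in the Mbd3 class (7.74 to 34.3). It was in 52.7% of 5318 with a small difference, so the order of the shares was the same within that range. The interval of the Zbtb7a class there again holds the share with a small difference. Without histone genes the Mbd3 class had GACCC in 31.6%.

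CACCC was in 84.8% of the Zbtb7a class, 47.7% of the Mbd3 class, 64.1% of promoters with a small difference and 57.7% of all promoters. Without histone genes the share of the Mbd3 class was 53.7%. GGGCGG, the GC box, was in 55.6% of the Zbtb7a class and 30.0% of the Mbd3 class, both below the 68.1% of promoters with a small difference, and in 35.9% of all promoters. CCGGAAG, a word of Ets factors, was in 6.06% of the Zbtb7a class and 7.69% of the Mbd3 class, beside 18.4% with a small difference and 8.92% of all. CCAAT was in 30.3% of the Zbtb7a class, 53.8% of the Mbd3 class and 37.6% of all promoters, and without histone genes the Mbd3 class had 43.2%. The 47 histone promoters with a pair held CCAAT in 78.7%, TATAAA in 55.3% and the octamer ATTTGCAT in 23.4%, against 37.6%, 13.7% and 1.75% of all promoters. These words are known elements of histone promoters, and the shares are counts of letters and no measure of binding. Other words were searched as well. The shorter GC word GGGCG, held in the GC box, was in 47.3% of all promoters and CAAAG in 54.0%. The E-box CACGTG was in 7.20%, GTTAAT, part of the HNF1 site, in 7.10%, and the AP-1 site TGACTCA in 5.23%. The word AAGACCC, which ends in GACCC, was in 4.09% of all promoters and in 3.87% of those with a small difference. It was in 10 of 99 promoters of the Zbtb7a class (10.1%, exact interval 4.95 to 17.8). In the Mbd3 class it was in 2 of 130 (1.54%, exact interval 0.19 to 5.45). The Mbd3 share rests on 2 promoters, and its interval holds the share of all promoters, so no depletion can be read from it. TGACGTCA (1.80%), TCTCGCGA (1.00%), the NRF1 word (0.973%), a C-rich word of 10 letters (0.856%) and the Ronin word (0.288%) were rarer, and none of them passed 5% in either class.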

How the data were processed

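The values analysed were 3 peak lists, 1 per protein, in the narrowPeak layout, for Zbtb7a, Mbd3 and Mta2. Each deposited line holds a peak's interval, the fold, a ratio of signal over background at the summit by the authors' peak caller, the deposited −log10 p and −log10 q values, a display score that the authors' caller derived from −log10 q and that was not used, and the summit's offset from the start in bp. Bowtie2, deepTools, MACS2, bedtools and mm10 are named per the submitters' processing notes. The sources used here do not state their versions and settings, the use of Input or how replicates were combined. Per the labels' protocols, tissue was fixed with disuccinimidyl glutarate and then formaldehyde, which also holds proteins that reach DNA through partners.

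Peaks on autosomes and X were ranked by fold within their list and paired as mutual best partners. A gene's pair had both summits within 1 kb of a start in the RefSeq promoter table (GRCm38.p6, 17274 genes) or, without one, of either gene end. Pairs were placed inside or outside genes by the RefSeq spans, so exons and introns were not told apart. The pairing code was tested on simulated data. Shares carry exact (Clopper-Pearson) intervals, which cover counting error only.

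Members, gene lists (23, 669 symbols, all matched) and words were chosen with earlier results of these data known. Named were the 12 genes of highest and lowest rank difference, 8 each inside and 3 each outside genes, the 5 most equal and the 6 most different of the top 1%, every NuRD subunit, Zbtb7a and the extremes of each list. Some of these, and some markers, are not reported here. The histone genes and the pair near Eif2b5 were chosen after their values were seen. No test was possible between lists without replicates. Python 3.11.15, numpy 2.4.6, pandas 2.3.3, scipy 1.17.1 and matplotlib 3.10.9 were used.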

Additional observations from a re-analysis of the deposited data

Results flagged for a closer look

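Chromosome Y was left out of the comparison. It carried 80 Zbtb7a peaks (median fold 3.48) and 156 Mbd3 peaks (median fold 3.12), and 65 mutual best pairs. They stand here because they are a signal outside the pairs described, and no list of control peaks was at hand to set them against.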

How the results depend on the processing

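Counts of pairs, of close summits and of wider Zbtb7a peaks stayed within 1.5 times of the values given under each alternative but one. With a fold of at least 5 in both lists there were 55333 pairs, 51158 with close summits and 19582 with the wider Zbtb7a peak, since fewer peaks entered, and Mbd3 ranked at least 30 points higher in 2799. Pairs with Zbtb7a and with Mbd3 at least 30 points higher numbered 2634 and 6627 over every overlapping pair, and 2585 and 2420 with ranks among paired peaks only. With −log10 q of at least 10, Zbtb7a was higher in 1120 pairs, and with the 100000 strongest peaks per list Mbd3 was higher in 2539. With ranks among paired peaks only, 244 genes had Zbtb7a at least 30 points higher. The median of histone genes was -29.9 points with summits within 100 bp (26 genes), that of fatty acid oxidation 0.62 by −log10 q, and that of the Zbtb7 family, 1 gene, 4.10 by −log10 q, 5.98 among paired peaks and 2.55 (3 genes) with windows of 3 kb. Slc6a4 turned to -2.26 points with a window of 3 kb, and Pus3 and Ddx25 to -22.5 points by −log10 q, because another pair of the gene then ranked first. The alternatives on summits within 100 bp, the strongest overlapping peak, ranks among paired peaks for genes, histone genes, and gene counts were added after the data were seen. No paired analysis was possible because each protein has 1 list for both replicates, and for the same reason no replicate could be left out.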
